A study of Rattus norvegicus with 78 samples.

Results

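The genes of oxidative phosphorylation, the machinery by which mitochondria turn nutrients into ATP, were followed in 2 brain regions of young and adult rats. Members were the array features whose RefSeq transcript belongs to a rat gene with a symbol starting Nduf, Uqcr, Cox4 to Cox8 or Atp5, to Sdha, Sdhb, Sdhc or Sdhd, or to Cycs. Where several features carried the same symbol, the brightest stood for the gene. The rule gave 54 genes of 9627 named genes, on an array of 26419 features. They were 14 subunits and 3 assembly factors of complex I, 3 subunits of complex II, 5 of complex III, 13 of complex IV, 14 of complex V, the complex V inhibitor Atp5if1, and cytochrome c (Cycs). In all, 119 protein-coding symbols in RefSeq have names of this form, so the set is a sample of each complex. The subunits encoded in mitochondrial DNA were not analysed here. The members were bright: 51 lay above the median feature, 42 in the brightest 25% and 23 in the brightest 10%. Ndufa10l1 is a near copy of Ndufa10, and signals of such copies may not be separable on an array.

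The rats were male offspring of the selectively bred Low Responder line. Their dams drank plain water (control) or water that gave 10 mg/kg/day of paroxetine, an antidepressant that blocks serotonin reuptake (exposed), from the week before conception to weaning at P21. Hippocampus and amygdala were sampled at postnatal days 7, 14, 21 and 75 (P7, P14, P21 and P75), giving 16 groups of region, age and dam treatment and 78 single-colour arrays. There were 4 arrays in the exposed P7 group of either region and 5 in every other group. All groups share the bred line, so the values hold for that line. The sources used here do not give litters or say whether tissue of several pups was pooled, and the spread that the p-values rest on is that between arrays.

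Electrons from food enter the respiratory chain through complex I (from NADH) and complex II (from succinate). They pass by ubiquinone to complex III, by cytochrome c to complex IV, and there reduce oxygen to water, while complexes I, III and IV pump protons out of the mitochondrial matrix. Complex V, the ATP synthase, lets the protons flow back through a membrane rotor that turns a catalytic head, where ATP is made. Neurons rely on this ATP for ion pumping and transmitter release, and brain respiratory capacity is known to build up over the first postnatal weeks.

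All values are log2 of the deposited normalized intensity. Each difference is exposed minus control, followed after ± by its standard error from limma. A gene is called higher or lower where its p, Benjamini-Hochberg adjusted over all features, was under 0.05. Array-wide measures moved with the groups and touch every hippocampal result, and amygdalar ones as well. A control probe of random sequence, which should match no transcript, averaged 43.97 in control and 52.97 in exposed hippocampi at P7, and 56.29 and 49.00 at P75, on the linear intensity scale. Hippocampal means at P21 were 55.19 in controls and 47.64 in exposed rats. Amygdalar group means of that probe ran from 44.63 to 50.77. They were 48.90 in controls and 44.63 in exposed pups at P7, and 50.77 and 46.09 at P75. At P14 they were 47.15 and 46.14, and at P21 45.31 and 46.71. The interquartile range of log2 values over all features was 3.21 in P7 controls and 2.79 in P7 exposed hippocampi, and was 2.73 in P75 controls and 2.97 in P75 exposed hippocampi. Counts from a fit that holds the random probe's log2 value as a covariate therefore stand beside the main ones. Some arrays stood apart within their groups on principal components: replicates 4 and 5 of the hippocampal P14 controls, replicates 1 and 2 against 3 and 4 of the hippocampal P7 exposed group, replicates 4 and 5 of the amygdalar P7 controls, and replicates 1 and 2 of the amygdalar P75 exposed group. All 9 neuronal and all 9 astrocytic marker genes measured lay above the median feature. Genes that tell hippocampus from amygdala were not among the lists used. In whole tissue, fewer cells of a type and less RNA per cell cannot be told apart.

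To describe each complex, its members' log2 values were set relative to their own mean in the P7 controls of the region and averaged. In control hippocampi the mean over all 54 members went from 0.00 at P7 to -0.13 ± 0.05 (SD, n = 5) at P14, -0.47 ± 0.06 at P21 and -0.60 ± 0.02 at P75. In exposed hippocampi it went the other way, from -0.47 ± 0.02 (SD, n = 4) at P7 to -0.15 ± 0.02, -0.24 ± 0.01 and 0.07 ± 0.05. Array values of the 54-gene mean did not overlap between the arms at P7, P21 and P75, and they overlapped at P14. Amygdalar means stayed in a narrower range, from 0.00 in P7 controls to 0.35 ± 0.15 in exposed rats at P14. These means hold every member, called or not, and carry no test. In the hippocampus from P7 to P75, the median difference over the brightest 10% of features was -0.46 in controls and 0.35 in exposed rats.

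**Figure D1:**
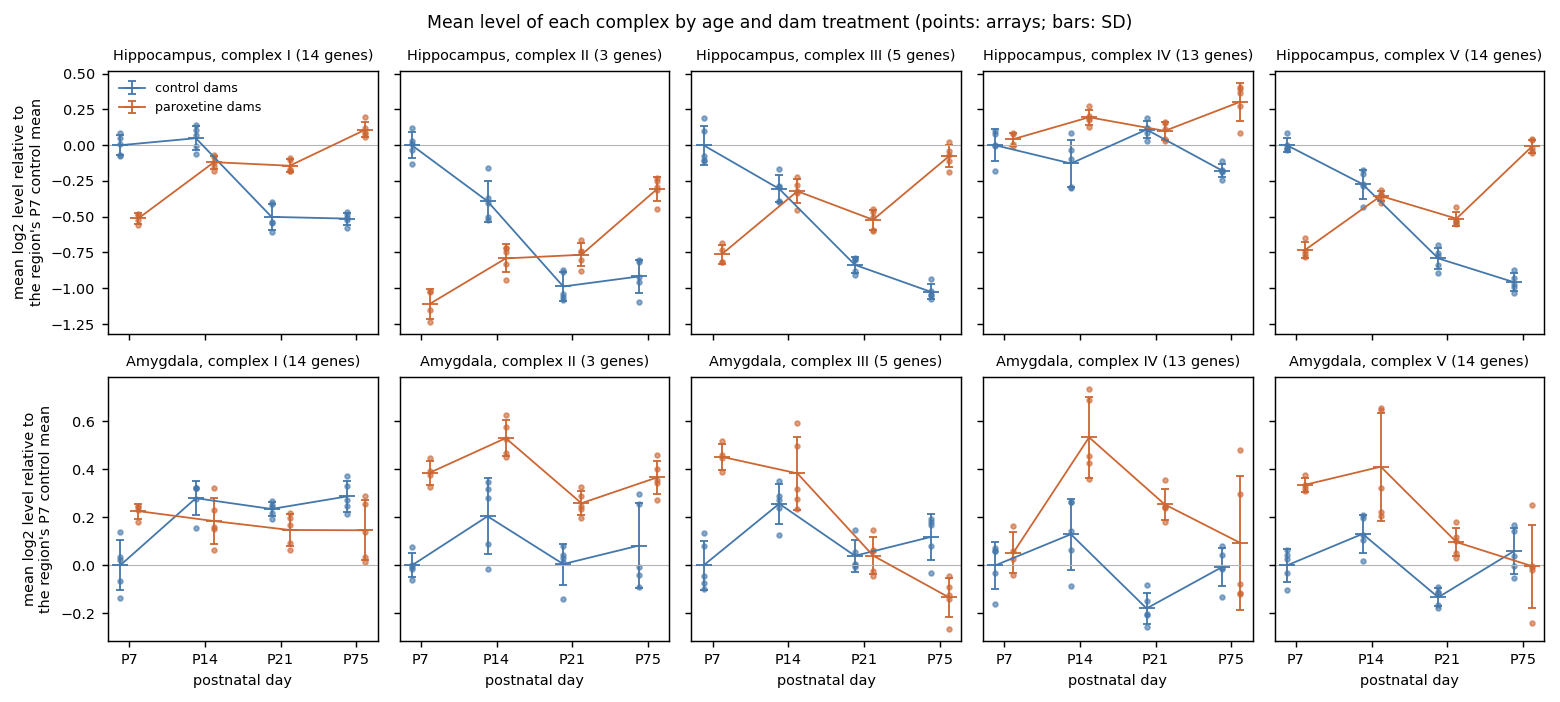
Mean log2 level of the measured members of each complex, relative to their mean in the P7 control arrays of the same region, by postnatal day; points are arrays, dashes are group means, bars are SD, and lines join the means of each arm. In the hippocampus the exposed arm starts below the control arm at P7 in complexes I, II, III and V and lies above it at P75 in all 5.

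Complex V showed the crossing between the arms in all its arrays at P7 and P75. In P7 control hippocampi its 14-gene mean was -0.02, -0.03, 0.00, 0.08 and -0.03 in the 5 arrays, and in exposed hippocampi it was -0.74, -0.65, -0.76 and -0.78 in the 4 arrays. All 4 exposed arrays lay below all 5 controls. At P75 the control values were -1.03, -0.99, -0.97, -0.87 and -0.93, and the exposed values were -0.04, -0.05, 0.04, 0.03 and -0.02, all above the controls. Complex II had the lowest exposed mean at P7, at -1.11 ± 0.10, against 0.00 in controls. Complex III differed by -0.76 at P7 and 0.95 at P75, and complex I at -0.51 and 0.62. Complex IV was the exception at P7, where the exposed mean of 0.04 ± 0.04 overlapped the control arrays; its members went in opposite directions.

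In the hippocampus at P7, 30 of 54 members were lower in exposed pups and 10 higher, with 53.4% of all features called, 25.1% higher and 28.3% lower. The members' median difference was -0.37, against 0.07 over all features and -0.41 over the brightest 10% of features, so the members' median lay close to that of bright features in general. By complex, 7 of 14 complex I subunits were lower and 2 higher, all 3 of complex II and 4 of 5 of complex III were lower, and 9 of 14 of complex V were lower with none higher. In 36 of 54 members the array values of the groups did not overlap, against 40.4% of all features. Quantile normalization over all arrays gave 16 members higher and 21 lower.

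Atp5f1a and Atp5f1b, of the ATP synthase head where ATP is formed, had the lowest differences of all members. Log2 values of Atp5f1a, the alpha subunit, were 13.69, 13.73, 13.60, 13.69 and 13.83 in control arrays and 11.33, 11.54, 11.46 and 11.46 in exposed arrays. The exposed arrays were all low, at a difference of -2.26 ± 0.10 (adjusted p = 6.43e-20). Values of Atp5f1b, the catalytic beta subunit, were 14.36, 14.29, 14.26, 14.65 and 14.33 in control arrays and 12.26, 12.25, 12.26 and 12.24 in exposed arrays, again without overlap (-2.12 ± 0.11, adjusted p = 1.64e-18). Atp5f1c, the gamma subunit of the turning central stalk, was lower, at -1.30 ± 0.13. The small central stalk subunits Atp5f1d (-0.16 ± 0.13) and Atp5f1e (-0.20 ± 0.18) did not pass. All 4 peripheral stalk subunits, which hold the head still, were lower, from Atp5pb at -1.68 ± 0.14 to Atp5pf at -0.43 ± 0.14. Neither c-ring gene, Atp5mc1 (0.11 ± 0.12) or Atp5mc2 (-0.18 ± 0.12), passed. Of the membrane subunits, Atp5me, which joins synthases into dimers, was lower, at -0.90 ± 0.11, and Atp5mk did not pass (0.18 ± 0.09).

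Of 5 core subunits of complex I, 4 were lower and 1 higher. Ndufs1, the large iron-sulphur subunit, read 10.83, 10.96, 10.83, 11.04 and 11.38 in control arrays and 9.59, 9.13, 8.99 and 9.11 in exposed arrays, with no overlap (-1.80 ± 0.15, adjusted p = 1.71e-12). Ndufv1, which binds NADH, was lower, at -1.37 ± 0.14 and its partner Ndufv2 at -1.18 ± 0.18. The core subunit Ndufs7, which carries the last iron-sulphur cluster, was higher by 0.37 ± 0.11. Among 9 accessory subunits only Ndufa10l1, Ndufa11 and Ndufa5 were lower, and Ndufs5 was higher by 0.37 ± 0.12. Of the assembly factors, Ndufaf7 was lower, at -1.60 ± 0.24 and Ndufaf4 higher by 0.79 ± 0.19.

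In complex II, Sdha, the flavoprotein that oxidises succinate, read 12.25, 12.21, 12.18, 12.20 and 11.73 in control arrays and 10.89, 10.68, 10.66 and 10.69 in exposed arrays. The groups did not overlap (-1.38 ± 0.12, adjusted p = 2.97e-12). The membrane anchors Sdhc and Sdhd were lower, at -1.23 ± 0.12 and -0.71 ± 0.13. In complex III, the core protein Uqcrc2 read 10.45, 10.57, 10.57, 10.76 and 10.43 in control arrays and 8.71, 8.80, 8.72 and 8.95 in exposed arrays, with all exposed arrays below the controls (-1.76 ± 0.11, adjusted p = 4.81e-16). Uqcrc1 (-0.96 ± 0.17) and the Rieske iron-sulphur protein Uqcrfs1 (-0.88 ± 0.16) were lower too, whereas Uqcrh, the hinge protein that aids docking of cytochrome c, did not pass (0.16 ± 0.13). Cycs itself was lower, at -0.51 ± 0.11. In complex IV, 4 of 8 widely used subunits were lower, led by Cox4i1 at -1.33 ± 0.12, and Cox8a was higher by 0.34 ± 0.11. All 5 isoforms known for narrower tissue use were higher: Cox4i2 by 1.04 ± 0.20, Cox6b2 by 1.04 ± 0.22, Cox8c by 0.94 ± 0.29, Cox6a2 by 0.75 ± 0.16 and Cox8b by 0.70 ± 0.28.

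Without exposed replicates 1 and 2 the P7 counts were 8 higher and 26 lower, and without 3 and 4 they were 7 and 29. With the random probe in the model, 8 members passed at P7 and all were lower, among them Ndufs1 (-1.86), Ndufv1 (-1.72), Uqcrc2 (-1.12), Cox5b (-1.32), Atp5f1a (-1.90), Atp5f1b (-1.85) and Atp5pb (-1.57). No member was then higher, and Cox8c turned to -0.69. Markers of cell types moved in the same comparison. Of 9 neuronal markers 7 were lower and 2 higher, and their summed intensity ranged over 126327 to 137626 in control and 73733 to 78250 in exposed arrays. Of 9 astrocytic markers 8 were lower, with sums of 75023 to 83268 and 24818 to 26824. Of 9 choroid plexus markers 7 were higher, with sums of 2418 to 2742 and 7988 to 9466. No marker was at 0, and the markers' part in the members' differences was not tested.

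**Figure D2:**
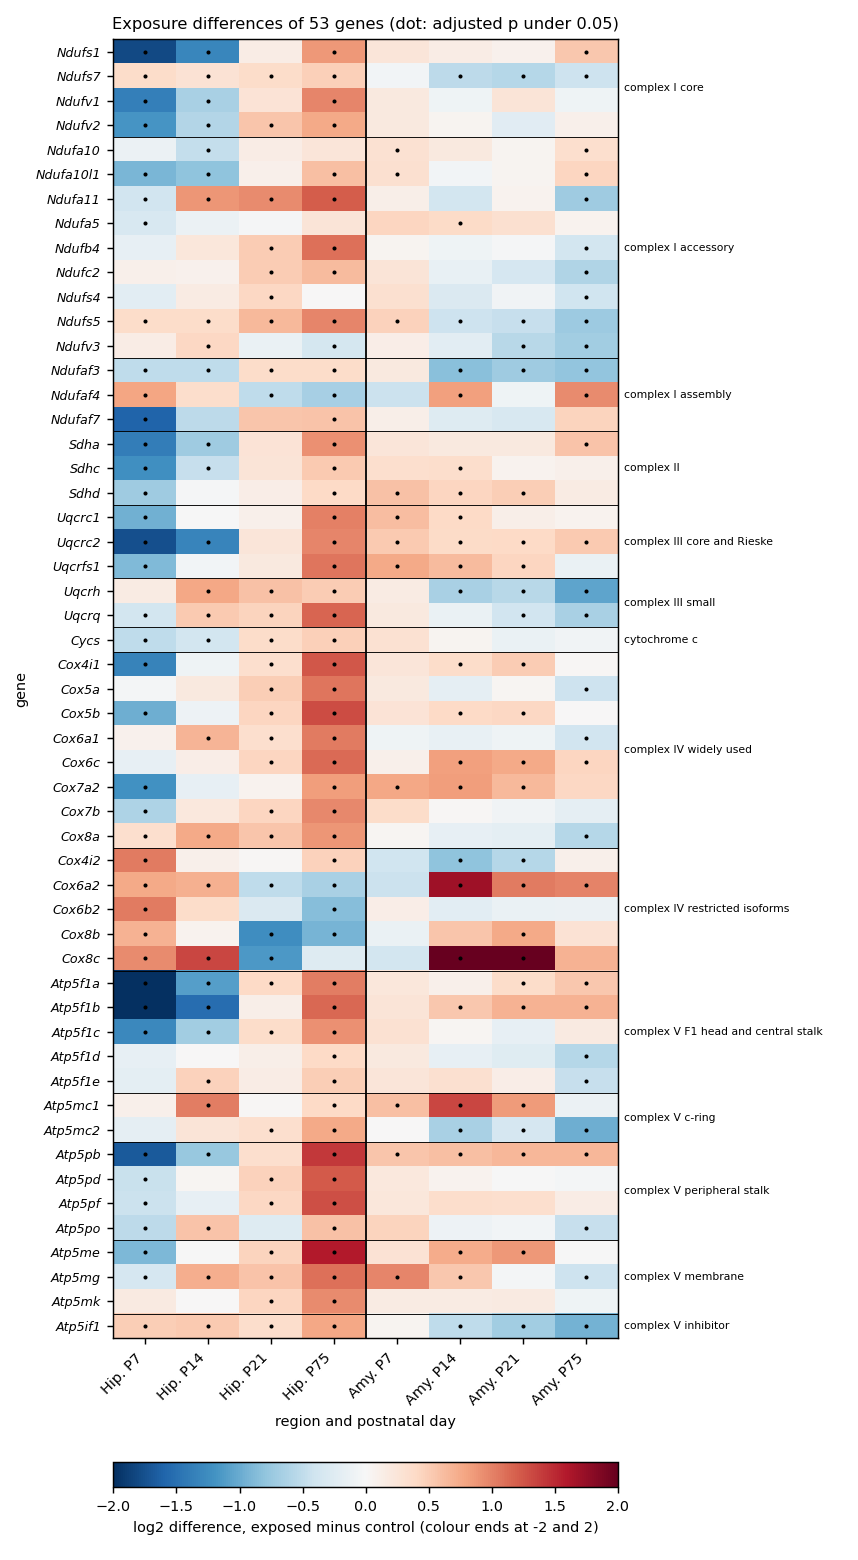
Log2 difference, exposed minus control, of 53 of the 54 genes (rows, grouped by role) in the 4 ages of the hippocampus and the amygdala (columns); red is higher and blue lower in exposed rats, colours end at -2 and 2, and a dot marks an adjusted p under 0.05. The hippocampal columns turn from mostly blue at P7 to mostly red at P75, while Cox6a2, Cox6b2 and Cox8b turn the opposite way.

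Promoters of 48 of the 54 members were found in RefSeq (assembly GRCr8, 250 bases before to 50 after the annotated start). Binding motifs of 2 factors long tied to respiratory genes, nuclear respiratory factor 1 (NRF1, searched as GCGC, any base, then TGCGC) and the ETS family that includes NRF2 (searched as CCGGAAG), were sought on both strands. The NRF1 letters were in 12 of 48 member promoters (25%), against 6.6% of 7841 promoters of named array genes. The ETS letters were in 14 of 48 (29.2%), against 11.8%. A match in letters is a description and shows no binding. All 14 members with the ETS letters were higher in exposed hippocampi at P75, as were 25 of the 34 without them. Of all features 23.7% were higher there, and of the brightest 10% of features 69%. At P7 11 of 14 with and 16 of 34 without were lower, beside 28.3% of all features and 55.8% of the brightest 10%. Those without the letters include Cox6a2, Cox6b2, Cox8b and Cox8c, which were higher at P7. Whether the letters bear on direction was not tested. Only Atp5me held both motifs. The 120 bases before the start are shown for 8 members that recur in the results, 5′ to 3′ on the gene's strand, with NRF1 and ETS matches in capitals.

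Uqcrc2: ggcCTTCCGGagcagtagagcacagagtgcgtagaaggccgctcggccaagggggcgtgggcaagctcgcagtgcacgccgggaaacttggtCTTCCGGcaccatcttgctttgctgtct
Atp5f1a: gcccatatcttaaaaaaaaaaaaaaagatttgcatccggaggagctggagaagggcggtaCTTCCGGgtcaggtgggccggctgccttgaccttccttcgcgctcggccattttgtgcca
Sdha: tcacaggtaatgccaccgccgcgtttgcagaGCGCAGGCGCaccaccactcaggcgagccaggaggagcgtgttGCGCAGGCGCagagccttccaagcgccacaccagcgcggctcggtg
Atp5me: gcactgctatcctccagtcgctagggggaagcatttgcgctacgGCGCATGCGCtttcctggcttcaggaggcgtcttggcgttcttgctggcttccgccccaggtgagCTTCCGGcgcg
Atp5f1b: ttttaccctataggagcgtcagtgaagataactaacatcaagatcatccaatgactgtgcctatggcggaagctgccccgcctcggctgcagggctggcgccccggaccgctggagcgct
Cox8a: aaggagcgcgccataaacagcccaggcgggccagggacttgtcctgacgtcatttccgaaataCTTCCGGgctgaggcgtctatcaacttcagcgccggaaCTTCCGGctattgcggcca
Uqcrh: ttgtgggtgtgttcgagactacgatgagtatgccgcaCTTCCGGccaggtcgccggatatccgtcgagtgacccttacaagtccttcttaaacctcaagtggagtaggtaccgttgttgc
Cox8b: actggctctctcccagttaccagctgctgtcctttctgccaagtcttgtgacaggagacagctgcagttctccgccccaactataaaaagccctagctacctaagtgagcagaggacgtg

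These windows lie, in GRCr8, at chr1:184599120-184599239 (plus strand) for Uqcrc2, chr18:73567417-73567536 (plus strand) for Atp5f1a, chr1:30764433-30764552 (plus strand) for Sdha and chr14:1464740-1464859 (plus strand) for Atp5me. The others lie at chr7:1099938-1100057 (plus strand) for Atp5f1b, chr1:213833624-213833743 (minus strand) for Cox8a, chr5:134790883-134791002 (minus strand) for Uqcrh and chr1:205408274-205408393 (minus strand) for Cox8b. Uqcrc2 and Cox8a hold 2 ETS matches each, Atp5f1a and Uqcrh 1 each, and Sdha 2 NRF1 matches in the window shown. For Atp5me the annotated gene span begins inside the window, before the start that the promoter table uses. Atp5f1b, which was lower at P7 as Atp5f1a was, and the muscle isoform Cox8b hold neither in these 120 bases. Uqcrc2 and Cox8a share the ETS letters but differed in direction at P7 (-1.76 ± 0.11 and 0.34 ± 0.11).

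At P14 the hippocampal members were called equally often in both directions, 15 higher and 15 lower, with 38.2% of all features called, 16% higher and 22.2% lower and a median of 0.02 against 0.01 over all features. Quantile normalization gave 22 higher and 11 lower. Several core subunits that were lower at P7 were lower again. Atp5f1b read 14.29, 14.45, 13.88, 14.23 and 14.40 in control arrays and 12.81, 12.81, 12.66, 12.68 and 12.70 in exposed arrays. Every exposed array lay below every control (-1.52 ± 0.10, adjusted p = 3.62e-14). Uqcrc2 was lower, at -1.32 ± 0.10, Ndufs1 at -1.30 ± 0.14 and Atp5f1a at -1.10 ± 0.09. In all, 14 members were lower at P7 and at P14, a course not counted over all features. Arrays of the groups did not overlap in 23 members at P14, against 25.6% of all features.

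Among the 15 members higher at P14, Atp5mc1, a gene of the rotor's c-ring, was higher by 1.02 ± 0.11 and Ndufa11, an accessory subunit of the complex I membrane arm, by 0.89 ± 0.13. Uqcrh read 10.64, 10.11, 10.50, 10.54 and 10.50 in control arrays and 11.08, 11.32, 11.28, 11.24 and 11.22 in exposed arrays. The exposed arrays were all above the controls (0.77 ± 0.12, adjusted p = 2.64e-06). Cox8a was higher by 0.76 ± 0.11 and Cox8c by 1.33 ± 0.27. Ndufa11, Uqcrq, Atp5mg and Atp5po, all lower at P7, were higher at P14. Their P7 differences with the random probe in the model were 0.43, 0.14, 0.22 and 0.068, none called, and all 4 remained higher at P14. That fit called 18 members at P14, 10 higher and 8 lower. Without control replicates 4 and 5, 16 were higher and 12 lower. Of 9 neuronal markers 6, and of 9 astrocytic markers 7, were lower at P14, and 4 of 9 choroid plexus markers were higher, with their part not tested.

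At P21, the age of weaning, 28 hippocampal members were higher and 4 lower, with 26.4% of all features called, 15.8% higher and 10.6% lower. Their median was 0.34, against 0.04 over all features and 0.29 over the brightest 10%. Ndufa11 and Ndufs5, both accessory subunits, had the highest differences: Ndufa11 was higher by 0.95 ± 0.13 and Ndufs5 by 0.64 ± 0.11. Ndufs5, a small subunit of the complex I membrane arm, read 8.42, 8.60, 8.51, 8.45 and 8.71 in control arrays and 8.97, 9.13, 9.35, 9.27 and 9.18 in exposed arrays. The exposed values were all above the controls. Of 8 widely used complex IV subunits 7 were higher, with Cox7a2 the exception at 0.06 ± 0.16. Atp5f1b, far apart at the earlier ages, differed by 0.11 ± 0.10 and did not pass, and no complex II subunit passed. In 28 members the groups did not overlap, against 22% of all features.

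The 4 members that were lower at P21 were 3 restricted complex IV isoforms and an assembly factor. Cox8c read 9.24, 9.76, 9.62, 9.66 and 9.70 in control arrays and 8.84, 8.38, 7.98, 7.98 and 9.02 in exposed arrays, with every exposed array below every control (-1.16 ± 0.27, adjusted p = 0.00179). Cox8b was lower, at -1.24 ± 0.27, Cox6a2 at -0.51 ± 0.15 and Ndufaf4 at -0.52 ± 0.18. All 4 were higher at P7. Cox8c, with the random probe in the model, stood at -0.69 at P7 and 0.14 at P21, and Ndufaf4 at -0.20 and 0.27, none called and all of opposite sign to the main values. No member passed at P21 with that covariate (0 of 54 by limma, and 3 at an unadjusted p under 0.05, all higher), and with quantile normalization 16 were higher and 4 lower. A plain unpaired test called 32. Of 9 neuronal markers 5, and of 9 astrocytic markers 8, were higher at P21, and 3 of 9 choroid plexus markers were lower, with their part not tested.

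In adult hippocampus at P75, long after the last exposure, nearly the whole set was higher in exposed rats: 45 members were higher and 5 lower, with 42.4% of all features called, 23.7% higher and 18.6% lower. The median difference was 0.85, against 0.02 over all features and 0.48 over the brightest 10%. Groups did not overlap in 41 members, against 25.3% of all features. All subunits measured of complexes II (3), III (5) and V (14) were higher, as were all 5 core subunits of complex I, all 8 widely used complex IV subunits, Cycs and Atp5if1.

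Atp5me, the small subunit at the synthase dimer face, differed most. It read 9.40, 9.83, 9.78, 9.74 and 9.69 in control arrays and 11.16, 11.22, 11.35, 11.24 and 11.40 in exposed arrays, with all exposed arrays higher (1.59 ± 0.10, adjusted p = 1.33e-13). Atp5pb, of the peripheral stalk, was higher by 1.41 ± 0.14, Atp5pf by 1.29 ± 0.14 and Atp5pd by 1.22 ± 0.11. Atp5f1b read 12.13, 12.26, 12.14, 12.26 and 12.27 in control arrays and 13.26, 13.28, 13.38, 13.47 and 13.42 in exposed arrays. The exposed arrays again lay apart, now above (1.15 ± 0.10, adjusted p = 6.85e-11). In complex IV, Cox5b was higher by 1.31 ± 0.12 and Cox4i1 by 1.25 ± 0.11. In complex III the 5 differences ran from 0.51 (Uqcrh) to 1.16 (Uqcrq).

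The 5 members lower at P75 were Cox8b (-0.92 ± 0.27), Cox6b2 (-0.85 ± 0.21), Ndufaf4 (-0.66 ± 0.18), Cox6a2 (-0.64 ± 0.15) and Ndufv3 (-0.34 ± 0.12). Cox8c did not pass (-0.26 ± 0.27). With the random probe as a covariate 4 members passed, all higher: Cox5a (1.27), Cox5b (1.57), Cox6c (1.07) and Atp5me (1.30). Beside these differences, 9 of 9 neuronal markers were higher, with summed intensities of 75721 to 80463 in control and 105135 to 113468 in exposed arrays. Of 9 astrocytic markers 6 were higher, with sums of 56129 to 59276 and 78888 to 91955, and 4 of 9 choroid plexus markers were lower. Their part in the result was not tested.

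**Figure D3:**
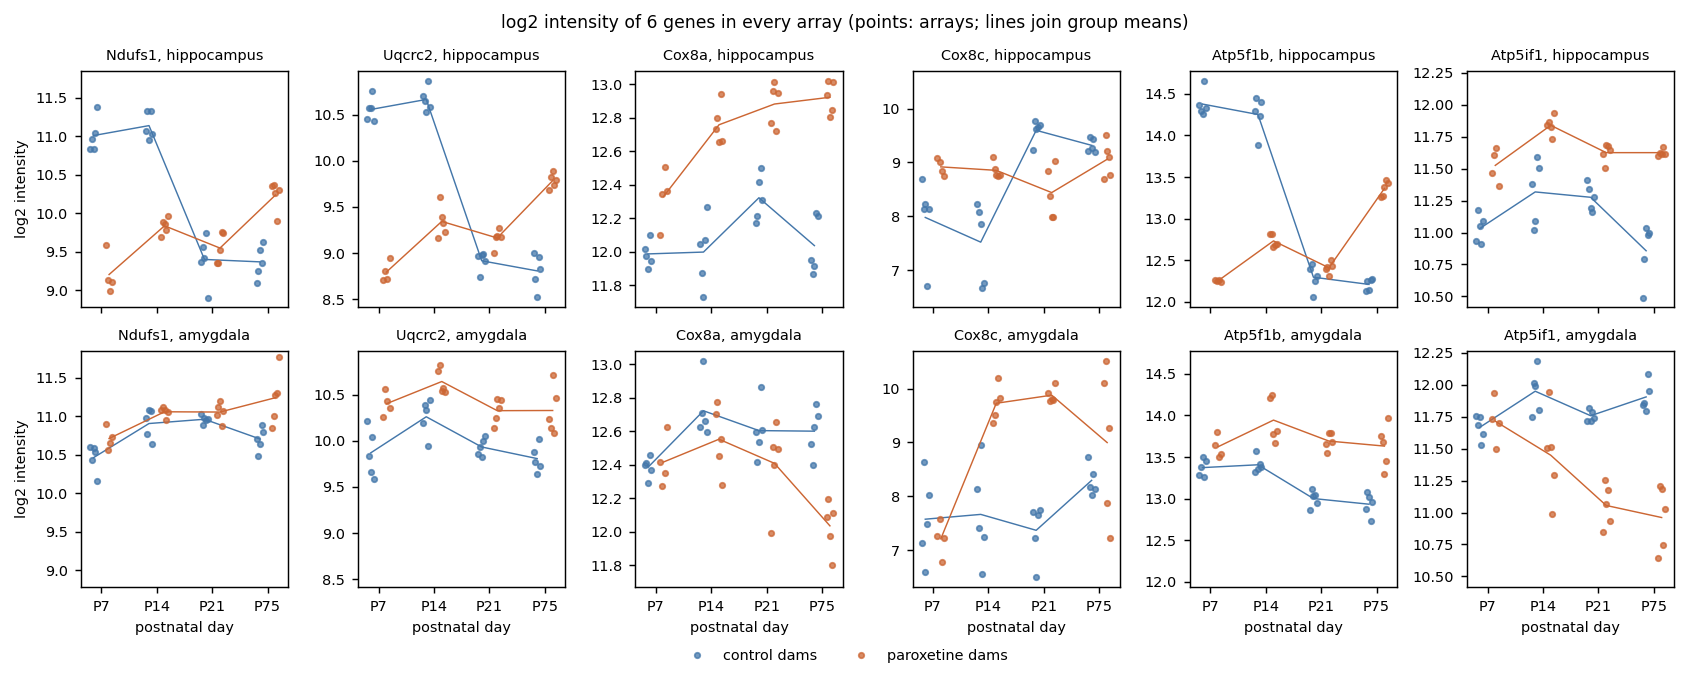
Log2 intensity of 6 genes in every array by postnatal day, hippocampus above and amygdala below, with 1 point per array, lines joining group means and the same vertical range for a gene in both regions. Hippocampal Ndufs1, Uqcrc2 and Atp5f1b start far apart at P7 and have crossed by P75, while Atp5if1 and Cox8a are higher in the exposed arm of the hippocampus and lower in that of the amygdala at P75.

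Whether the exposure difference was equal over the 4 ages was tested with an F test in each region. In the hippocampus 52 of 54 members passed, with 63.5% of all features called, led by Atp5f1a (F = 234, adjusted p = 1.75e-20), Atp5f1b (F = 217) and Uqcrc2 (F = 152). The members that did not pass were Ndufs7 and Atp5if1, which were higher at each of the 4 ages. The covariate fit called 28. In all, 29 members were lower at P7 and higher at P75, 27 were higher at both P21 and P75, and 6 (among them Atp5f1a, Atp5f1c, Cycs, Ndufaf3 and Ndufv2) were lower at P7 and P14 and higher at P21 and P75. Ndufs5, Ndufs7, Cox8a and Atp5if1 were higher at all 4 ages. How many of all features follow the same courses was not counted. The P7 and P75 differences, which share no arrays, had a Spearman correlation of -0.49 across the 54 members and -0.67 across 9627 named genes. Genes share the arrays and their scaling, so this is a description with no p.

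Control hippocampi had their own course. From P7 to P14, 6 members were higher and 13 lower (21.6% of all features called, 10.6% higher and 11% lower), with Atp5po, which joins head and stalk, lowest (-0.88 ± 0.16, adjusted p = 3.68e-05) and Cox4i2 highest (0.72 ± 0.19, adjusted p = 0.00346). Between P14 and P21, 8 were higher and 28 lower (54% of all features called, 24.1% higher and 29.9% lower), or 13 and 20 after quantile normalization. Atp5f1b dropped most there (-1.95 ± 0.10, adjusted p = 8.4e-18), followed by Atp5f1a (-1.83 ± 0.09, adjusted p = 1.17e-17). Cox8c was higher (2.08 ± 0.27, adjusted p = 4.84e-08), as was Cox8b (1.33 ± 0.27, adjusted p = 6.1e-05). From P21 to P75, 4 were lower and none higher (2.54% of all features called, 0.882% higher and 1.65% lower), namely Uqcrq, Cox4i2, Cox5a and Atp5if1. From P7 to P75 in all, 6 were higher and 35 lower (59.8% of all features called, 29.4% higher and 30.4% lower), or 12 and 29 after quantile normalization, while in exposed hippocampi 39 were higher and 3 lower (39.1% of all features called, 20.3% higher and 18.7% lower). Over those ages Atp5f1a differed by -2.20 ± 0.09, adjusted p = 9.51e-21 in controls. Sdha differed by 1.29 ± 0.12, adjusted p = 3.37e-11 in exposed rats. With the random probe as a covariate, 3 members passed from P14 to P21 in controls, 2 from P7 to P75 in controls and 25 from P7 to P75 in exposed rats.

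In the amygdala at P7, 11 members were higher in exposed pups and none lower, with 7.83% of all features called, 5.66% higher and 2.17% lower and a median of 0.22 against 0.08 over all features. Atp5mg, a membrane subunit of complex V, was higher by 0.97 ± 0.16, adjusted p = 0.000826. Cox7a2, of complex IV, was higher by 0.77 ± 0.21. Uqcrc2 read 10.22, 9.84, 9.66, 10.04 and 9.59 in control arrays and 10.26, 10.56, 10.43 and 10.35 in exposed arrays, with all exposed arrays above the controls (0.53 ± 0.13, adjusted p = 0.0122). Its partners Uqcrc1 and Uqcrfs1 were higher by 0.62 ± 0.17 and 0.76 ± 0.16, so all 3 core and Rieske genes of complex III passed here while they were lower in the hippocampus of the same age. The groups did not overlap in 16 members, against 9.45% of all features. The count changed with the settings: 4 members passed after quantile normalization and 1 (Uqcrfs1, 0.90) with the random probe as a covariate. It was 0 when only these 9 arrays were fitted by limma (16 at an unadjusted p under 0.05, all higher). A plain unpaired test called 3. In the main fit the count was 5 without control replicates 4 and 5 together (Atp5pb, at 0.46, was then not called). It was 6 without control replicate 5 alone, 7 without exposed replicate 1 or 3, and 5 without exposed replicate 4.

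At P14, 18 amygdalar members were higher and 7 lower (35.8% of all features called, 16.5% higher and 19.3% lower; median 0.07 against -0.06 over all features), and at P21, 15 and 9 (25.4% of all features called, 9.45% higher and 16% lower; median 0.05 against -0.07). Cox8c, the isoform known from testis, had the largest differences of any member in this region. It read 8.13, 7.41, 8.96, 6.57 and 7.25 in control arrays and 9.36, 9.51, 9.75, 10.19 and 9.82 in exposed arrays at P14. All exposed arrays lay above all controls, whose own values spread widely (2.06 ± 0.43, adjusted p = 0.000303). At P21 it read 7.71, 7.22, 6.51, 7.65 and 7.75 in control arrays and 9.92, 9.77, 9.80, 9.79 and 10.10 in exposed arrays, with the exposed arrays again apart (2.51 ± 0.43, adjusted p = 5.59e-05). Cox6a2, the heart and skeletal muscle isoform, read 7.96, 7.40, 8.64, 7.53 and 7.16 in control arrays and 9.58, 9.53, 9.60, 9.20 and 9.30 in exposed arrays at P14 (1.70 ± 0.27, adjusted p = 6.47e-06). It was higher by 1.04 ± 0.27 at P21. The covariate fit called 26 members at P14, 18 higher and 8 lower, and 21 at P21, 14 higher and 7 lower.

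Among the widely used subunits, Atp5mc1 was higher by 1.34 ± 0.16 at P14 and 0.85 ± 0.16 at P21, and Atp5me by 0.74 ± 0.11 and 0.86 ± 0.11. Atp5f1b read 12.86, 13.12, 13.04, 13.05 and 12.94 in control arrays and 13.65, 13.55, 13.79, 13.79 and 13.68 in exposed arrays at P21, with the exposed arrays all higher (0.69 ± 0.12, adjusted p = 4.26e-05). Among those lower at both ages were Ndufaf3, an assembly factor of complex I, at -0.84 ± 0.12 and -0.70 ± 0.12, Cox4i2 at -0.81 ± 0.22 and -0.58 ± 0.22, Atp5mc2 at -0.64 ± 0.10 and -0.34 ± 0.10 and Uqcrh at -0.65 ± 0.13 and -0.56 ± 0.13. Ndufs7 was lower too, at -0.52 ± 0.11 and -0.57 ± 0.11. Atp5mc1 and Atp5mc2 encode the same mature c-ring protein, and they went opposite ways at both ages. In all, 7 members were lower at both P14 and P21, a course not counted over all features. Groups did not overlap in 18 members at P14, against 22.3% of all features, and in 29 at P21, against 27.1%. The 2 comparisons share no arrays, and their differences had a Spearman correlation of 0.86 across the 54 members and 0.71 across named genes.

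At P75, 12 amygdalar members were higher and 19 lower (21.1% of all features called, 9.35% higher and 11.8% lower), with a median of -0.03, as over all features (-0.03). The lowest was the hinge protein gene Uqcrh, which read 11.43, 11.40, 11.28, 11.49 and 11.55 in control arrays and 10.12, 10.53, 10.38, 10.42 and 10.40 in exposed arrays. The exposed arrays were all lower (-1.06 ± 0.13, adjusted p = 1.77e-07). Atp5mc2 was lower, at -0.98 ± 0.10, Atp5if1 at -0.94 ± 0.13, Ndufaf3 at -0.78 ± 0.12, Ndufs5 at -0.72 ± 0.13 and Ndufa11 at -0.72 ± 0.15, and 6 of 9 accessory subunits of complex I were lower in all. The F1 head and central stalk gave 2 of 5 subunits higher and 2 lower, and the core of complex I 2 of 5 higher and 1 lower. Atp5f1b read 12.87, 13.09, 13.02, 12.73 and 12.96 in control arrays and 13.75, 13.68, 13.30, 13.45 and 13.97 in exposed arrays, all exposed arrays above the controls (0.70 ± 0.12, adjusted p = 2.62e-05). In the same stalk and core, Atp5f1d was lower, at -0.56 ± 0.12, Atp5f1e at -0.45 ± 0.16 and Ndufs7 at -0.42 ± 0.11. Among the others, Atp5pb was higher by 0.67 ± 0.14, Sdha by 0.57 ± 0.10 and Ndufs1 by 0.54 ± 0.12. The highest were the muscle isoform Cox6a2 (1.00 ± 0.27) and Ndufaf4 (0.95 ± 0.29). Exposed replicates 1 and 2 stood apart, most visibly in complex IV, where the 5 exposed arrays read 0.30, 0.48, -0.08, -0.11 and -0.12. Without them 10 members were higher and 16 lower. Groups did not overlap in 20 members, against 12.7% of all features. With the random probe as a covariate 20 passed, 5 higher and 15 lower, and 18 when only these 10 arrays were fitted.

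In the amygdala 27 of 54 members passed the same F test (32.7% of all features called; 23 members with the covariate). The main F test was led by Atp5mc2 (F = 16.6, adjusted p = 4.79e-05), Ndufaf3 and Atp5mg. No call at any age was made for 10 members, and the same was not counted over all features. Uqcrc2 and Atp5pb were higher at each of the 4 ages and did not pass the F test. In control amygdalae 11 members were higher and 4 lower at P75 than at P7 (25.4% of all features called, 13.8% higher and 11.6% lower), with Ndufs5 highest of those called (0.68 ± 0.13, adjusted p = 0.00017) and Cox6b2, the testis isoform, lowest (-1.81 ± 0.20, adjusted p = 9.06e-09). The steps between gave 9 higher and 1 lower from P7 to P14 (7.15% of all features called, 4.77% higher and 2.38% lower), 1 and 14 from P14 to P21 (12.4% of all features called, 7.43% higher and 4.92% lower), and 5 and 0 from P21 to P75 (3.85% of all features called, 0.954% higher and 2.9% lower), where Atp5me was highest of those called (0.78 ± 0.11, adjusted p = 2.49e-05). In exposed amygdalae 6 were higher and 21 lower at P75 than at P7 (37.5% of all features called, 15.6% higher and 22% lower), or 12 and 15 after quantile normalization. Of the brightest 10% of features 23.7% were higher and 41.5% lower there.

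The exposure differences of the regions were compared in a fit of all 78 arrays. Sample titles do not name the rat, so arrays of the 2 regions could not be paired and were fitted as independent. Where both regions came from the same rats, the p-values below do not allow for it. At P7 the hippocampal difference was lower than the amygdalar one in 32 members and higher in 7 (49.4% of all features called, 20% higher and 29.4% lower), or 24 and 11 after quantile normalization. Atp5f1a led (-2.49 ± 0.15, adjusted p = 7.32e-23). At P14, 23 were lower and 13 higher (28.1% of all features called, 12% higher and 16.1% lower). At P21, 23 were higher and 6 lower (37.6% of all features called, 23.2% higher and 14.4% lower), or 13 and 12 after quantile normalization, and at P75, 38 were higher and 4 lower (36.9% of all features called, 22.3% higher and 14.6% lower). Ndufa11 had the largest term at P75 (1.92 ± 0.19, adjusted p = 2.52e-12), and Cox8c the largest at P21 (-3.67 ± 0.52, adjusted p = 7e-08). Among the brightest 10% of features, 20.8% were higher and 54.9% lower at P7, and 25.7% and 32.0% at P14. The shares were 53.9% higher and 8.97% lower at P21, and 62.3% and 8.55% at P75. With the random probe as a covariate, 15 members passed at P7, 30 at P14, 5 at P21 and 37 at P75. At P75, all 14 complex V subunits had a higher difference in the hippocampus.

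Atp5if1, the small protein that stops the synthase from running backwards, went opposite ways in the regions. In the hippocampus it was higher at every age, from 0.35 ± 0.11 at P21 to 0.77 ± 0.11 at P75. With the random probe as a covariate it was not called there at P7, P21 or P75. At P75 it read 10.48, 10.79, 11.03, 10.98 and 11.00 in control arrays and 11.60, 11.62, 11.62, 11.67 and 11.62 in exposed arrays, with no overlap. In the amygdala it did not pass at P7 (0.05 ± 0.14) and was lower at P14 (-0.50 ± 0.13), P21 (-0.70 ± 0.13) and P75. There it read 11.84, 11.86, 11.79, 12.08 and 11.95 in control arrays and 10.64, 11.21, 11.18, 10.75 and 11.02 in exposed arrays, all exposed arrays below the controls. The region term at P75 was 1.71 ± 0.16, adjusted p = 3.52e-13. Cycs, the electron carrier between complexes III and IV, differed in the hippocampus by -0.51 ± 0.11 at P7, -0.37 ± 0.11 at P14, 0.37 ± 0.11 at P21 and 0.48 ± 0.11 at P75, all called. In the covariate fit it stood at 0.081 at P7 and -0.10 at P21, not called at either age. In the amygdala it passed at no age, with differences from -0.13 to 0.30.

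Other lists of the energy pathway gave a setting for the members. At P7 in the hippocampus 19 of 19 glycolytic genes and 14 of 15 genes of the TCA cycle were lower, and 12 of 16 carrier, porin and energy transfer genes, among them Vdac1 (-2.34 ± 0.12, adjusted p = 4.12e-18) and Vdac3 (-2.35 ± 0.12, adjusted p = 5.05e-18), the outer membrane channels. Of 12 regulators of mitochondrial biogenesis 5 were lower and 1 higher. Gabpb1, a partner subunit of the ETS factor NRF2, was lower, at -2.03 ± 0.20, adjusted p = 8.5e-11, and Tfam, which packs mitochondrial DNA, at -0.72 ± 0.21, adjusted p = 0.00338. Of 20 mitochondrial ribosomal proteins 5 were lower and 4 higher, of 10 antioxidant enzymes 6 and 2, and of 10 further assembly factors 5 and 2. These counts stand beside 28.3% lower of all features and 55.8% lower of the brightest 10%, and all 19 glycolytic and all 15 TCA cycle genes lay above the median feature in brightness. In the fit with the random probe, 5 of 19 glycolytic, 7 of 15 TCA cycle and 6 of 16 carrier and porin genes were lower at P7 (1 of the last was higher), and 0 of the 12 regulators were called by limma (2 at an unadjusted p under 0.05).

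At P75 in the hippocampus 18 of 19 glycolytic genes, 14 of 15 TCA cycle genes, 12 of 16 carrier and porin genes and 9 of 10 further assembly factors were higher, beside 23.7% higher of all features and 69% of the brightest 10%. In the fit with the random probe, 2 of 19 glycolytic genes were higher at P75 and limma called 0 genes of the TCA cycle, carrier and assembly factor lists (9 of 15, 9 of 16 and 3 of 10 at an unadjusted p under 0.05). The biogenesis regulators gave 2 of 12 higher (Ssbp1 and Yy1) and none lower: Ppargc1a, the coactivator named for this role, differed by 0.02 ± 0.14, adjusted p = 0.912, and Gabpb1 by 0.20 ± 0.19, adjusted p = 0.416. Mitochondrial ribosomal proteins were split, 9 of 20 higher and 2 lower, and 8 of 10 antioxidant enzymes were higher, Gpx4 by 1.22 ± 0.13, adjusted p = 4.24e-09. In the amygdala at P75 the same counts were 8 of 19 glycolytic genes higher and none lower, and 7 of 15 TCA cycle genes higher and 1 lower, beside 12 and 19 of the 54 members. There 7 of 9 astrocytic and 4 of 9 neuronal markers were higher and 2 neuronal markers lower, with their part in the members' differences not tested. Neuronal markers were called in 0 cases in the amygdala at P7, and at P14 4 of 9 were lower and 1 higher. Other markers moved there. The median summed intensity of choroid plexus markers was 2901 in control and 4848 in exposed amygdalae at P7, and 5771 and 2785 at P14. At P21 it was 1805 and 6796, and at P75 5826 and 4901. Oligodendrocyte sums at P7 ranged over 5328 to 17312 in control and 6275 to 8202 in exposed arrays. Their part was not tested.

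The members are short genes, with a median span from start to end of 7.41 kb in GRCr8 against 14.99 kb over named genes. Span ran from 1.2 kb (Cox6b2 and Atp5me) to 110.5 kb (Ndufs4). Longer members had lower differences at P7 and P14 in the hippocampus, with Spearman correlations of -0.39 and -0.42 across 54 members and -0.35 and -0.38 across 9627 named genes. Of the 27 longer members 17 were lower and 2 higher at P7, and the median difference was -0.71 in the longer and -0.20 in the shorter members. At P75 the correlation was 0.06 in the members and 0.25 in named genes. Genes on an array share its scaling and brightness, so these are descriptions.

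**Figure D4:**
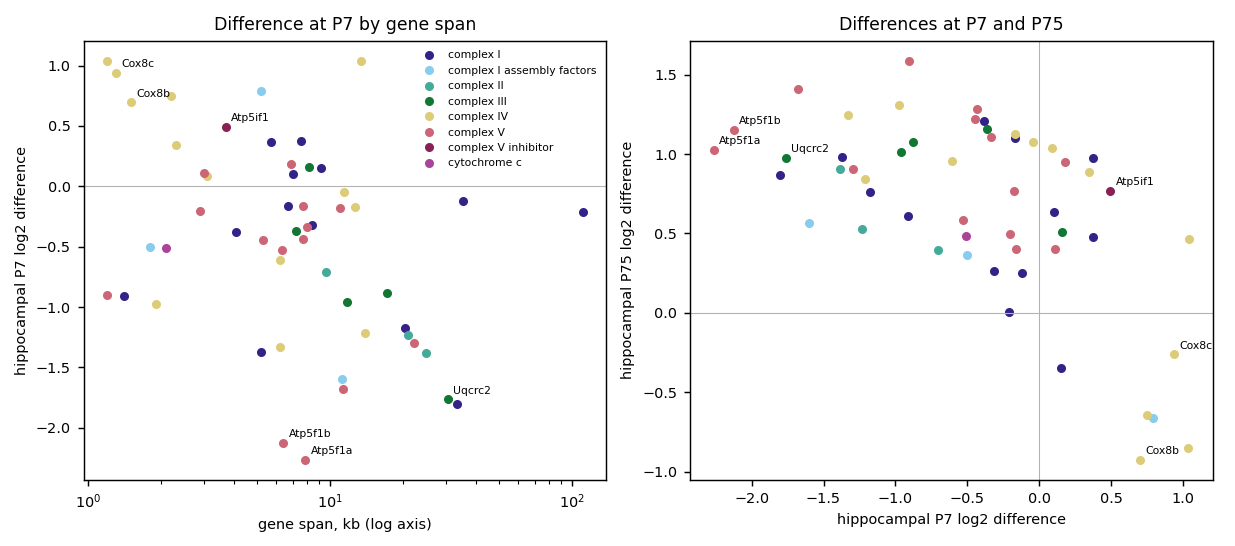
Left: hippocampal log2 difference at P7, exposed minus control, against gene span in kb on a log axis for 53 of the 54 genes, coloured by complex. Right: hippocampal difference at P75 against that at P7. Long genes are seldom above 0 at P7, and most points on the right have a negative P7 and a positive P75 difference.

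The authors' deposited tables of their own comparisons, kept at a Bonferroni-corrected p and a fold threshold, list few members, and every listed member had the same direction in the limma fit. They list 9 members as down in the hippocampus at P7 and 5 at P14, 1 as up at P21 and 13 as up at P75. In the amygdala they list 1 member as up at P7, 1 at P14 and 5 at P21, and 2 as down at P75. For Atp5f1a at P7 the authors' deposited table gives a 4.80-fold decrease, and for Atp5me at P75 a 3.01-fold increase. In the amygdala the authors' deposited table gives Cox8c at P21 as 5.69-fold up and Uqcrh at P75 as 2.09-fold down.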

How the data were processed

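RNA of 78 samples was amplified, labelled with Cy3 and hybridised to single-colour NimbleGen arrays, per the labels' protocols. The deposited values are normalized intensity per feature on a linear scale, and how they were normalized is not given in the sources used here. The authors' comparison tables hold a fold change, a p-value and a corrected p-value per listed feature, per the file headers. From the deposited intensities, log2 was taken with no pseudocount and all 26419 features were fitted with limma 3.58.1 (R 4.3.3), lmFit and eBayes, by region (39 arrays each), with 78 arrays for the region terms. Calls used Benjamini-Hochberg adjustment over all features at 0.05. The number of arrays sets the precision. RefSeq named 9747 features. The authors' 8 comparison tables also had 312 per-array columns, with RMA in their headers, that match no sample here and were not used.

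Members and lists were chosen with earlier results of these data known. Named members are the brightest per complex, the most changed per comparison, those called against the majority, and isoforms and regulators. Further members, their roles, and the promoters printed were chosen after their values were seen. In simulated counterparts of the hippocampal P7 comparison, 68 of 100 changes of 1 log2 unit and 9 of 100 of 0.5 were recovered. There, 100 changes of each size were planted among 26419 features, while 53.4% of all features were called in the data. The recovered shares therefore do not give the sensitivity reached in the data. The alternatives were quantile normalization, a filter on dim features, trended robust moderation and the replicate number as a block. Another was the mean over all rows of a gene, where Ndufaf3 had 2 rows and the other members 1. Further ones were the random probe as a covariate, a fit of only the groups compared, a plain unpaired t-test and leaving out arrays. The own values of 1 member are not reported here, although counts over the members include it.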

Additional observations from a re-analysis of the deposited data

Results flagged for a closer look

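Of 304 groups of 4 or 5 arrays examined for complexes I to V and the genes followed array by array, 16 held an array whose gap to its nearest neighbour took up most of the group's range. Chance alone sets apart about 1 in 20 groups. Of the complex means, on the relative log2 scale, control replicate 5 of the amygdala at P14 was low for complex I at 0.16, control replicate 4 of the hippocampus at P7 was high for complex V at 0.083, and exposed replicate 4 of the hippocampus at P21 was high for complex V at -0.43.

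Single genes gave the other flags, as log2 intensities. Ndufs1 was low in exposed replicate 4 of the P75 hippocampus at 9.90. Sdha was high in exposed replicate 3 of the P7 amygdala at 12.17, low in control replicate 5 of the P7 hippocampus at 11.73 and high in its exposed replicate 1 at 10.89. Uqcrh was low in control replicate 2 of the P14 hippocampus at 10.11 and high in exposed replicate 5 of the P75 hippocampus at 11.30. Cox8a was high in control replicate 3 of the P14 amygdala at 13.02. Cox8c was low in control replicate 1 of the P21 hippocampus at 9.24 and in control replicate 4 of the P7 hippocampus at 6.70. Cycs was low in control replicate 5 of the P14 amygdala at 10.51, control replicate 2 of the P21 amygdala at 10.80 and control replicate 2 of the P14 hippocampus at 10.96. Atp5f1b was high in control replicate 4 of the P7 hippocampus at 14.65.

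Exposure differences that were unequal between ages or regions by a test of the difference itself were counted too. They were found for 52 members over the ages of the hippocampus and 27 over those of the amygdala. Between the regions they were found for 39 members at P7, 36 at P14, 29 at P21 and 42 at P75.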

How the results depend on the processing

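The random control probe as a covariate changed most. Members called then numbered 8 in the hippocampus at P7, 18 at P14, 0 at P21 and 4 at P75, and 28 by the F test. In control hippocampi they numbered 3 from P14 to P21, 2 from P21 to P75 and 2 from P7 to P75, and 25 from P7 to P75 in exposed ones. In the amygdala they numbered 1 at P7, 20 at P75, 5 from P7 to P14 and 3 from P21 to P75 in controls, and for the region terms 15 at P7 and 5 at P21. Since the probe moves with the groups, the covariate and the exposure cannot be told apart fully, and the cause was not tested. Under it, hippocampal differences turned sign at P7 for Atp5mg (0.22), Atp5po (0.068), Cox8c (-0.69), Cycs (0.081), Ndufa11 (0.43), Ndufa5 (0.057), Ndufaf4 (-0.20) and Uqcrq (0.14), at P21 for Cox6a1 (-0.019), Cox8c (0.14), Cycs (-0.10), Ndufaf4 (0.27) and Ndufs7 (-0.10), and at P75 for Ndufaf4 (0.079). Quantile normalization left 20 calls in the hippocampus at P21 and 4 in the amygdala at P7. Fitting only the groups compared left 0 in the amygdala at P7 (16 at an unadjusted p under 0.05) and 18 at P75. A plain unpaired t-test left 3 there at P7. In control amygdalae, leaving out dim features gave 17 calls from P7 to P14 and 8 from P21 to P75, and trended robust moderation gave 16 from P7 to P14. Leaving out 1 array at a time gave 5 to 11 calls in the amygdala at P7, and, in controls, 4 to 11 from P7 to P14 (4 without P7 replicate 5, 6 without P14 replicate 4), 9 to 17 from P14 to P21 (9 without P14 replicate 2 or 4) and 2 to 5 from P21 to P75 (2 without P21 replicate 5, 3 without P21 replicate 2 or 3 or P75 replicate 2, 3 or 5). In control hippocampi from P21 to P75 it gave 2 to 3, with 2 without P21 replicate 1, 2 or 5 or P75 replicate 1 or 2. The 5 settings that leave out arrays standing apart were chosen after seeing the data, and of these the one without amygdalar P7 control replicates 4 and 5 left 5 calls at P7. With the replicate number as a block, 40, 30, 31 and 49 members were called in the hippocampus and 10, 24, 23 and 30 in the amygdala at P7, P14, P21 and P75, and no count of calls moved by over 1.5 times. Same-numbered control and exposed arrays of the same region and age were also compared. In 0 of 38 such pairs did the deviations from the group means correlate above 0.1 (from -0.157 to 0.0768). Same-numbered arrays of different regions or ages were not compared, so what they share is not known. Dim features limit what can be seen, and 51 of 54 members lay above the median feature.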
